A study of Mus musculus with 3 samples.

Results

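The proteasome is the cell's main machine for breaking down proteins marked with ubiquitin, and its subunit genes were followed across progenitors of innate lymphoid cells and the lymphoid progenitors before them. The genes were chosen by symbol alone, as those starting with Psma, Psmb, Psmc, Psmd, Psme or Psmf and a digit, with pseudogenes marked -ps left out. This rule took 46 of the 27998 genes measured. Subunits, assembly chaperones, activators and an inhibitor of the proteasome account for 44 of them. The other two carry such a symbol without being subunits: Psmc3ip encodes a protein that acts in the pairing of homologous chromosomes, and Psme2b is an intronless copy of the activator gene Psme2, so reads of the pair may be shared between them.

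Transcripts were counted in single cells sorted from bone marrow of C57BL/6 mice, with 1 droplet library (10x Chromium v2) per group. The ILCpro_KO library came from mice of genotype Tcf7EGFPnull/-, in which, by this label, no functional Tcf7 remains; Tcf7 encodes TCF-1, a transcription factor of lymphocyte development. The ILCpro_WT library came from Tcf7EGFP/+ mice, in which an EGFP reporter sits at one Tcf7 allele, so its cells are not unmodified wild type. Both were sorted with the gate Lin- Kit+ 2B4+ a4b7+ Tcf7+. The ALP library of all-lymphoid progenitors also came from Tcf7EGFP/+ mice, and its gate was Lin- Kit+ 2B4+ a4b7- with Flt3high and IL-7Ra+. How many animals went into a library, and their age, is not given in the sources used here. Because each group is a single library, spread between animals is unknown and no difference below carries a test. Intervals in parentheses are exact at 95% and cover counting error only.

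The core of the proteasome, the 20S particle, is a barrel of stacked rings. Its alpha subunits (Psma genes) form the outer rings and gate the entrance, and its beta subunits (Psmb genes) form the inner rings, where Psmb5, Psmb6 and Psmb7 supply the catalytic sites. In the immunoproteasome these are replaced by Psmb8, Psmb9 and Psmb10, in that order, which are made at high level in cells of blood origin and are induced by interferon gamma, and which alter the peptides offered on MHC class I. A 19S cap, with a ring of ATPases (Psmc genes) and non-ATPase subunits (Psmd genes), recognises, unfolds and feeds in ubiquitinated proteins. Alternative caps are the PA28 activators (Psme1 with Psme2, or Psme3) and PA200 (Psme4), and Psmf1 encodes an inhibitor of the core.

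Start regions are shown for the catalytic pairs in which both genes had a window in the RefSeq table, because the comparison of constitutive with immunoproteasome subunits turns on these genes. Each window runs from 250 bases before the RefSeq start to 50 bases after it, on the GRCm38.p6 build and 5' to 3' on the gene's own strand. Psmb8 lies at chr17:34197945-34198244 on the plus strand and Psmb5, which it replaces, at chr14:54617946-54618245 on the minus strand. Psmb9 lies at chr17:34187281-34187580 on the minus strand and Psmb6, its constitutive counterpart, at chr11:70525107-70525406 on the plus strand. Capitals mark a match to TGACNNNGC, the core of the antioxidant response element bound by NRF1 and NRF2, in Psmb5 and Psmb6, and a CCAAT box read on the opposite strand in Psmb9.
Psmb8: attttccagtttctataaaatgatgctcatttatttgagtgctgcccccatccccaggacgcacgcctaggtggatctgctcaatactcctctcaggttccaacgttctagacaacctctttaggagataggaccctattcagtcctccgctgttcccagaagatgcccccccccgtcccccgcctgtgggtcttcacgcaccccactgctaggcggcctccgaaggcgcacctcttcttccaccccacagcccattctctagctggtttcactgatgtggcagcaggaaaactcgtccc
Psmb5: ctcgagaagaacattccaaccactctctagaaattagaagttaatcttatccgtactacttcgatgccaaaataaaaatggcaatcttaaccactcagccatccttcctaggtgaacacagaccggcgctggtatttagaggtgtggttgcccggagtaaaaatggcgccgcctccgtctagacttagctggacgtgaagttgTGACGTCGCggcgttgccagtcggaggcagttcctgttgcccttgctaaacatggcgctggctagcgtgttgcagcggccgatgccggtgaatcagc
Psmb9: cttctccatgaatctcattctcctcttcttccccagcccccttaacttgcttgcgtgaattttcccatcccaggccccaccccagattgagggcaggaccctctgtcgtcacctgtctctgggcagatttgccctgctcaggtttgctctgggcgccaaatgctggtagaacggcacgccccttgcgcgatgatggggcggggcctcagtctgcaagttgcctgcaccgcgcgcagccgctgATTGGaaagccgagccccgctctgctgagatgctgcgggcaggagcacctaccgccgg
Psmb6: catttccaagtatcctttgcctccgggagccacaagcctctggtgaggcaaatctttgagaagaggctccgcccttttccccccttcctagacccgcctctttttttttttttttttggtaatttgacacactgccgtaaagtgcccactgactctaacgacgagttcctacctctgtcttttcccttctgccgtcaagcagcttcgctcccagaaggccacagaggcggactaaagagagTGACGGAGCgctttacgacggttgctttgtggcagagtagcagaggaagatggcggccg

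A window was found for 37 of the 44 subunit genes. On either strand, 14 of 37 held CCAAT, a motif bound by NF-Y, against 38.6% of the 17999 windows in the table. TGACNNNGC was present in 6 of 37 (Psmb5, Psmb6, Psmc6, Psmd9, Psmd12 and Psme4), against 13.3% of all windows. The interferon response element (GAAA at both ends with any 2 bases between) was present in 4 of 37 (Psmb3, Psmd4, Psmd9 and Psme1), against 3.35% of all windows, and these letters were not found in the windows of Psmb8, Psmb9 or Psmb10. By the GENCODE annotation Psmb8 starts at 34197721 and Psmb9 at 34187764, upstream of their windows, so the bases at those starts were not searched. Among the 7 windows of alpha subunit genes 5 held CCAAT. By RefSeq, Psmb9 and Tap1, a transporter that carries peptides to MHC class I, start 226 bases apart on chromosome 17 and face away from each other. In the GENCODE annotation Psmb9 reaches further upstream and overlaps Tap1 on the opposite strand, and no source used here states whether counting used the strand. The same holds for Psmb8 with Gm20496, Psmb10 with Gm16156, Psmb7 with Nek6 and Psme1 with Emc9.

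After a filter of at least 500 detected genes and at most 10% mitochondrial UMIs (unique transcript counts), 716 ILCpro_KO, 1829 ILCpro_WT and 810 ALP cells were kept, holding 4384061, 6094683 and 4115605 UMIs. The median cell had 5309, 2897 and 4544.5 UMIs in the same order. Tcf7 stood at 57.3 CPM (UMIs scaled to a library total of 1000000) in ILCpro_KO, 362 in ILCpro_WT and 1.46 in ALP; 3' tags from outside the deleted part of a null allele check nothing. All 10 markers of ILC precursors were detected in both gated libraries, summing to 1051 CPM in ILCpro_KO and 2607 in ILCpro_WT, against 222 in ALP. The 8 early lymphoid markers summed to 741 and 454 CPM, against 3006 in ALP. ILCpro_KO held cells of other lineages: 12 of 12 neutrophil and monocyte markers were detected at 4757 CPM in sum, against 10 of 12 at 495 CPM in ILCpro_WT, where Ngp and Camp were at 0. In ALP 12 of 12 were detected as well, at 998 CPM in sum, so detection of all 12 was not particular to ILCpro_KO. Conventional dendritic cell (DC) markers summed to 1617 CPM in ILCpro_KO, where Xcr1 was at 0, 752 in ILCpro_WT and 806 in ALP, where Batf3 was at 0. Plasmacytoid DC markers were highest in ALP, at 1747 CPM, against 1067 in ILCpro_KO and 537.5 in ILCpro_WT. Clusters named for other lineages made up 26.0% of ILCpro_KO cells, 4.81% of ILCpro_WT cells and 0.864% of ALP cells. ILCpro_KO shared 1 barcode with ILCpro_WT and 0 with ALP, and ILCpro_WT shared 4 with ALP.

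Transcripts of the proteasome were present at steady, moderate levels in all 3 populations. The 44 subunit genes together took 0.749% of UMIs (0.741 to 0.757) in ILCpro_KO, 0.638% (0.631 to 0.644) in ILCpro_WT and 0.671% (0.663 to 0.679) in ALP. The same order held per cell, where the median share was 0.720%, 0.605% and 0.652%. Of the 44 genes, 41 reached 20 CPM in at least one library. Each UMI stands for 1 molecule tagged at its 3' end, so levels were compared between genes without scaling to length. Psmb8 was the most abundant member everywhere, at 682 CPM in ILCpro_KO, 771 in ILCpro_WT and 679 in ALP. Psma7, an alpha subunit, was next at 541, 449.6 and 441 CPM, followed by the beta subunit Psmb1 at 414, 406 and 396 CPM and the activator Psme1 at 374.5, 399 and 329 CPM. Members kept nearly the same rank in the 3 libraries, with a Spearman rho over the 41 genes of 0.983 between ILCpro_KO and ILCpro_WT, 0.979 between ILCpro_KO and ALP and 0.971 between ILCpro_WT and ALP. These correlations are across genes, which share the same cells and are not replicates.

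**Figure D1:**
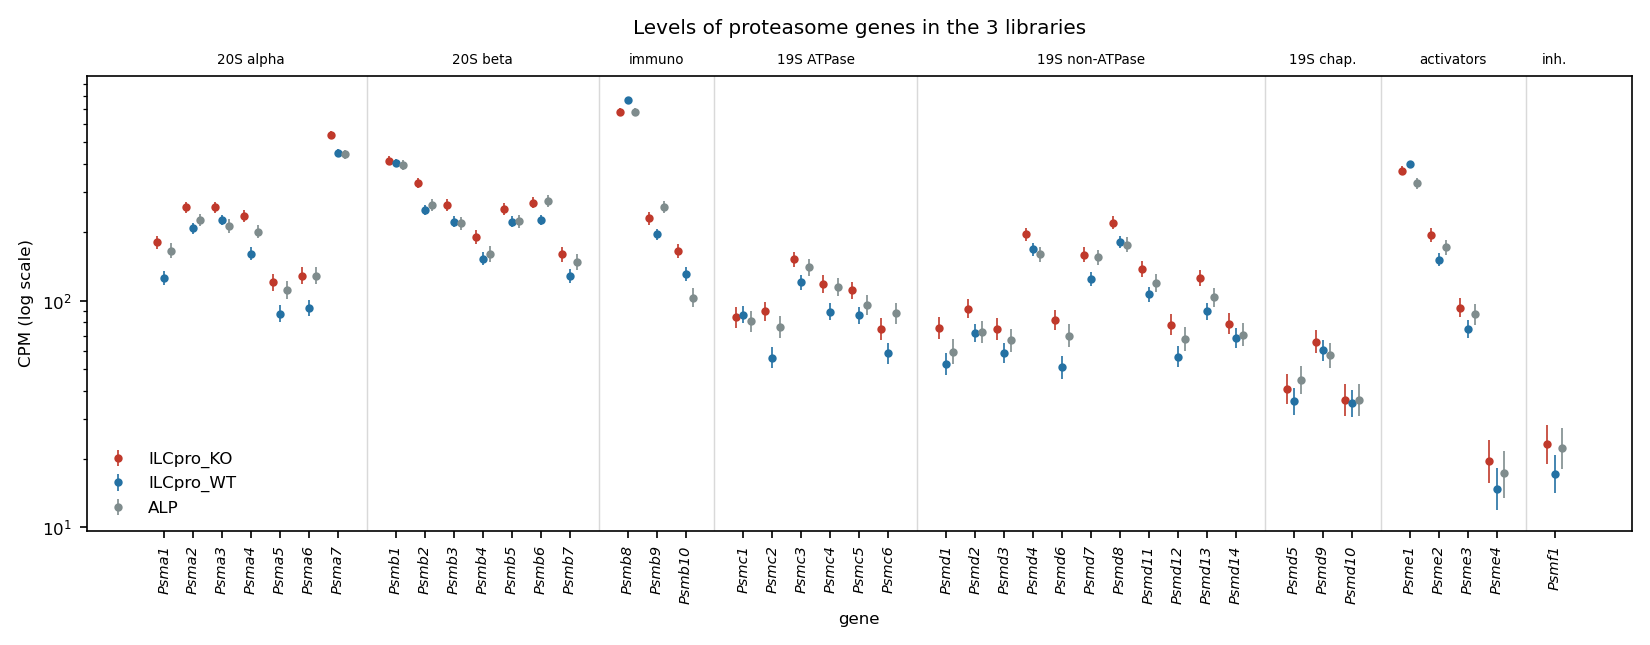
Level of each proteasome gene in CPM on a log axis, by role, in ILCpro_KO, ILCpro_WT and ALP. Points are summed UMIs in CPM with exact 95% Poisson intervals, Psma8 and Psmb11 are left out, and Psmb8 is the highest point in each library while Psme4 and Psmf1 are the lowest.

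The 3 members that stayed under 20 CPM were forms known from other tissues or a large activator. Psmb11, the beta subunit of the thymoproteasome of thymic epithelium, had 0 UMIs in each library, which allows at most 0.684 CPM in ILCpro_KO, 0.492 in ILCpro_WT and 0.729 in ALP at a limit of 3 counts. Psma8, the alpha subunit of testis, had 3, 4 and 8 UMIs. Psme4 had 86, 90 and 71 UMIs, or 19.6 CPM in ILCpro_KO, 14.8 in ILCpro_WT and 17.3 in ALP. The intervals of these Psme4 levels overlap (15.7 to 24.2, 11.9 to 18.2 and 13.5 to 21.8 CPM).

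The first comparison sets progenitors with the Tcf7 null genotype against those of the same gate with the reporter. Most proteasome genes were slightly higher in ILCpro_KO, and few by much. Summed over the 44 genes the level was 7489 CPM in ILCpro_KO and 6376 in ILCpro_WT, a fold of 1.17 (1.16 to 1.19). On the scale log2((CPM + 10)/(CPM + 10)) the median of the 41 measured members was 0.30, beside 0.12 for all 5877 genes that reached 20 CPM, and 38 members lay above 0, beside 65.8% of all genes. Calling a gene when it differed by at least 1.5-fold on this scale, 2 members were higher, beside 8.13% of all genes, and 0 were lower, beside 3.05%. Relative to the median of all genes, the members' median was 0.19. No member reached 2-fold, beside 2.18% of all genes.

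Among the alpha subunits all 7 measured genes were higher in ILCpro_KO, with a summed level of 1724 CPM against 1353 CPM in ILCpro_WT, a fold of 1.27 (1.23 to 1.31). Psma4 stood at 237 CPM (223 to 252) in ILCpro_KO against 161 (151 to 172) in ILCpro_WT, a log2 ratio of 0.53, and Psma1 at 181 against 126 CPM (0.49). Psma6 had 129 against 93.0 CPM (0.43) and Psma5 120.2 against 87.6 CPM (0.42). Psma3 differed least, with 258 against 227 CPM (0.18). The constitutive beta subunits summed to 1886 CPM in ILCpro_KO and 1610 CPM in ILCpro_WT, a fold of 1.17 (1.14 to 1.21). Psmb2, which has no catalytic site, had the largest ratio among them, at 331 against 250.4 CPM (0.39), while Psmb1 was at 414 against 406 CPM (0.03). The catalytic Psmb5, Psmb6 and Psmb7 stood at 255, 271 and 159.9 CPM in ILCpro_KO and at 223, 226 and 128 CPM in ILCpro_WT.

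In the 19S cap both called members were found. Psmd6, a scaffold subunit of the lid, stood at 82.3 CPM (74.1 to 91.3) in ILCpro_KO against 50.7 (45.2 to 56.7) in ILCpro_WT, a fold of 1.62 (1.39 to 1.90). Psmc2, an ATPase of the base, stood at 89.6 CPM (81.0 to 99.0) against 56.0 (50.2 to 62.2), a fold of 1.60 (1.38 to 1.86). Their log2 ratios, 0.61 and 0.60, lay just past the threshold, and Psma4 at 0.53 lay next below it. The ATPases summed to 630.5 CPM in ILCpro_KO and 496.5 in ILCpro_WT, a fold of 1.27 (1.21 to 1.34), with Psmc1 the exception at 84.2 against 86.6 CPM. The 11 non-ATPase subunits were all higher and summed to 1322 against 1029 CPM, a fold of 1.28 (1.24 to 1.33). Psmd1, the largest base scaffold, had 75.7 against 52.3 CPM and the lid subunit Psmd13 had 126 against 89.8 CPM, while the ubiquitin receptor Psmd4 (196 against 168 CPM) and the deubiquitinase Psmd14 (79.2 against 68.4 CPM) had the smallest ratios. The chaperones Psmd5, Psmd9 and Psmd10, which help to assemble the base and leave it, had log2 ratios of 0.15, 0.11 and 0.04, at or below the median of all genes but for Psmd5.

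The summed immunoproteasome genes did not differ beyond counting error, with Psmb8 lower and the other two higher. Psmb8, Psmb9 and Psmb10 summed to 1078 CPM in ILCpro_KO and 1098 CPM in ILCpro_WT, a fold of 0.982 (0.946 to 1.02) whose interval includes 1 and lies below that of the alpha subunits. Psmb8 stood at 682 CPM (658 to 707) in ILCpro_KO against 771 (749 to 793) in ILCpro_WT, a fold of 0.884 (0.844 to 0.926), with the lowest log2 ratio of all 41 members at -0.18. Psmb9 stood at 231 CPM (217 to 245) against 196 (185 to 208) and Psmb10 at 166 CPM (154 to 178) against 131 (122 to 140.0), both higher in ILCpro_KO by counts whose intervals do not overlap. Without the clusters named for other lineages Psmb8 stood at 716 against 777 CPM, a fold of 0.921 (0.876 to 0.969). Among the activators, Psme1 was at 374.5 CPM (357 to 393) against 399 (383 to 415), while its partner Psme2, with which it forms a ring, was at 195 against 151 CPM (0.34). Psme3, which forms a nuclear cap, was at 93.1 against 75.0 CPM (0.28), and the inhibitor Psmf1 at 23.3 against 17.2 CPM (0.29). Psme2b, the copy of Psme2, had 81.4 against 43.6 CPM (0.77), and this value cannot be told apart from reads of Psme2.

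Other properties of the libraries moved with this difference, and their part in it was not tested beyond the values given here. Cells called in S or G2/M phase made up 42.5% and 17.6% of ILCpro_KO, against 23.9% and 9.62% of ILCpro_WT. Ribosomal protein genes took 33.6% of UMIs in ILCpro_KO and 38.6% in ILCpro_WT, and a smaller ribosomal share raises the CPM of every other gene. With ribosomal and mitochondrial genes left out of the total, the members' median was 0.22 and 0 members were called. Without the clusters named for other lineages the summed fold was 1.18 (1.16 to 1.20) and 2 of 42 members were called higher, again Psmc2 and Psmd6, beside 6.8% of all genes. Cluster 0, a state described further on that held 564 ILCpro_WT and 14 ILCpro_KO cells, had the lowest alpha subunit level. Without it the summed fold was 1.11 (1.10 to 1.13), the alpha fold 1.16 (1.12 to 1.20) and the members' median 0.21, and 0 of 41 members were called, beside 6.43% of all genes. Among G1 cells alone the summed fold was 1.18 (1.15 to 1.21), with 7023 CPM in 286 ILCpro_KO cells against 5940.0 CPM in 1215 ILCpro_WT cells, and 1 member was called (Psmc2), beside 10.5% of all genes. The summed fold was 1.14 (1.11 to 1.17) among S cells and 1.05 (1.02 to 1.09) among G2/M cells. Cells matched for phase still differed in clusters. Cluster 0 held 529 of the 1215 ILCpro_WT cells in G1, 34 of 438 in S and 1 of 176 in G2/M. In ILCpro_KO it held 9 of 286 G1 cells and 5 of 304 S cells. Whether these folds differ by phase apart from cluster was not tested. The members' median log2 ratio was 0.31 in G1, 0.24 in S and 0.10 in G2/M cells. Beside these, the median of all genes was 0.12, 0.09 and 0.07. Among G2/M cells the alpha fold was 1.05 (0.981 to 1.12), an interval that includes 1.

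**Figure D2:**
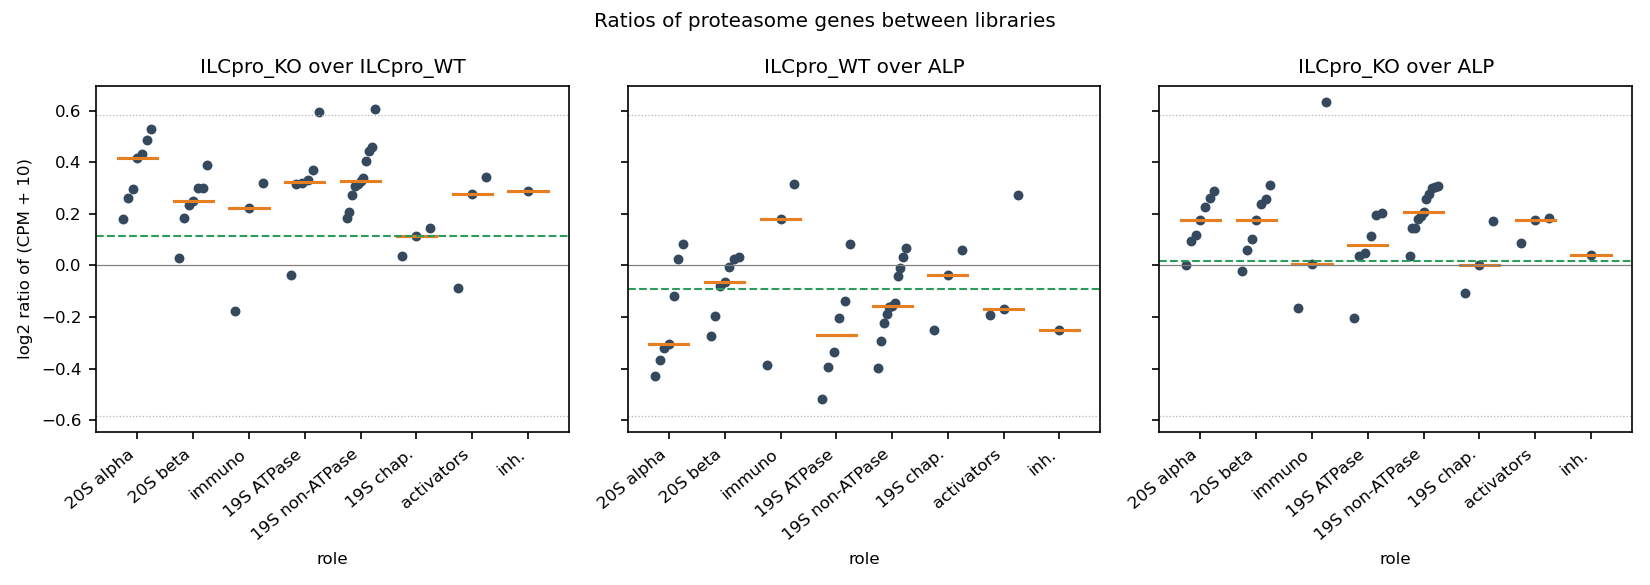
Log2 ratio of each measured proteasome gene, one point per gene, by role for the 3 comparisons of libraries. Orange bars are role medians, the green dashed line is the median of all genes, and dotted lines mark 1.5-fold; in ILCpro_KO over ILCpro_WT 38 of 41 points lie above 0, and only Psmc2 and Psmd6 pass the upper line.

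The second comparison sets ILC progenitors against all-lymphoid progenitors, both with the reporter allele. Proteasome genes were on balance a little lower in ILCpro_WT, and none passed 1.5-fold in either direction. The members' median log2 ratio was -0.16, beside -0.09 for all 5953 genes, and 11 of 41 lay above 0, beside 38.7% of all genes. Calls were 0 higher and 0 lower, beside 5.64% and 12.3% of all genes. The ATPases summed to 496.5 CPM in ILCpro_WT against 596 in ALP (fold 0.833, 0.789 to 0.879), the lowest fold of a role with more than one gene, with Psmc6 at 58.4 against 88.0 CPM (-0.52), Psmc2 at 56.0 against 76.5 CPM (-0.39) and Psmc4 at 89.3 against 115 CPM (-0.33). Of the alpha subunits, Psma6 had 93.0 CPM in ILCpro_WT against 128.5 in ALP (-0.43) and Psma1 126 against 166 CPM (-0.37). Psma3 (227 against 214 CPM, fold 1.06, 0.975 to 1.16) and Psma7 (449.6 against 441 CPM, fold 1.02, 0.959 to 1.08) did not differ beyond counting error. Psmd6 (50.7 against 70.0 CPM) and Psmd7 (125 against 155 CPM), both of the lid, had the lowest ratios of the non-ATPase subunits. Psmb6, at 226 against 275 CPM (-0.27), was the lowest of the constitutive beta subunits.

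The immunoproteasome genes split here. Psmb9 was lower in ILCpro_WT, at 196 CPM (185 to 208) against 259.7 in ALP (244 to 276), a fold of 0.756 (0.696 to 0.822). Psmb10 was higher, at 131 CPM (122 to 140.0) against 103 (93.5 to 113), a fold of 1.27 (1.13 to 1.43), with the highest log2 ratio of the members at 0.32. Psmb8 was higher too, at 771 CPM (749 to 793) against 679 (654 to 705), a fold of 1.14 (1.08 to 1.19). Psme1 was at 399 CPM in ILCpro_WT against 329 in ALP (0.27), the second highest ratio, while Psme2 was at 151 against 171.5 CPM (-0.17), so the paired activator genes differed in direction, as they did in ILCpro_KO against ILCpro_WT. Psme3 had 75.0 against 87.0 CPM and Psmf1 17.2 against 22.4 CPM. Among G1 cells alone Psmc1 was called higher in ILCpro_WT, at 86.0 against 54.0 CPM, and Psmc6 lower, at 53.3 against 93.9 CPM, beside 7.78% and 15% of all genes.

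ILCpro_KO against ALP shares a library with each of the comparisons above, so its values follow from the same counts. The members' median was 0.18, beside 0.02 for all 5999 genes, and 37 of 41 lay above 0, beside 53% of all genes. Psmb10 alone was called higher, beside 5.92% of all genes, and 0 were called lower, beside 5.6%. Its level was 166 CPM (154 to 178) in ILCpro_KO against 103 (93.5 to 113) in ALP, a fold of 1.61 (1.42 to 1.82). Psmb8 was at 682 against 679 CPM and Psmb9 at 231 against 259.7 CPM, so of the immunoproteasome genes Psmb10 stood apart. The alpha subunits summed to 1724 CPM in ILCpro_KO and 1491 in ALP, a fold of 1.16 (1.12 to 1.20), and the non-ATPase subunits to 1322 and 1122 CPM, a fold of 1.18 (1.13 to 1.23). Psmc6 had the lowest ratio, at 75.0 CPM in ILCpro_KO against 88.0 in ALP (-0.20). No member reached 2-fold, beside 2.58% of all genes. The list of G2/M phase genes had a median of -0.49 over 24 genes in this comparison.

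The balance between immunoproteasome and constitutive subunits was read as the share of a pair's UMIs that came from the immuno member, which does not depend on the library total. Psmb8 took 72.8% (71.4 to 74.2) of the Psmb8 and Psmb5 UMIs in ILCpro_KO, 77.6% (76.5 to 78.6) in ILCpro_WT and 75.2% (73.8 to 76.6) in ALP. Psmb9 took 46.0% (43.9 to 48.1) of its pair with Psmb6 in ILCpro_KO, 46.5% (44.5 to 48.4) in ILCpro_WT and 48.5% (46.4 to 50.7) in ALP, with intervals that overlap throughout. Psmb10 took 50.9% (48.3 to 53.5) of its pair with Psmb7 in ILCpro_KO and 50.5% (48.0 to 53.0) in ILCpro_WT, against 41.0% (38.0 to 44.1) in ALP. Without the clusters of other lineages the Psmb8 share was 73.7% (72.1 to 75.2) in ILCpro_KO, 77.7% (76.6 to 78.8) in ILCpro_WT and 75.2% (73.8 to 76.6) in ALP. Without cluster 0 it was 72.9% in ILCpro_KO and 76.1% in ILCpro_WT. So the Psmb8 share was lowest in ILCpro_KO, with an interval that overlapped that of ALP, and the Psmb10 share was lowest in ALP. Over the 3 pairs together the immuno share was 61.1% (60.0 to 62.2) in ILCpro_KO, 65.5% (64.6 to 66.5) in ILCpro_WT and 61.7% (60.5 to 62.8) in ALP.

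The pairs were also read by cell cycle phase. In G1 cells Psmb8 took 75.1% (72.4 to 77.6) of its pair in ILCpro_KO, 78.8% (77.4 to 80.2) in ILCpro_WT and 77.1% (74.0 to 80.0) in ALP, so the intervals of ILCpro_KO and ILCpro_WT met there. Psmb10 took 51.7% (46.8 to 56.6), 53.4% (49.9 to 56.9) and 43.6% (36.7 to 50.7) in G1 cells. In G2/M cells it took 46.3% (41.1 to 51.5), 42.7% (36.9 to 48.6) and 37.9% (33.0 to 42.9). Within ILCpro_WT the interval of the Psmb10 share in G2/M cells thus lay below that in G1 cells. These phases differ in clusters, since cluster 0 held 529 of the 1215 G1 cells and 1 of the 176 G2/M cells. In G1 cells of cluster 0 the Psmb10 share was 58.3% (52.6 to 63.8), against 46.5% (35.7 to 57.6) in those of cluster 3. Whether the share differs by phase apart from cluster was not tested.

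**Figure D3:**
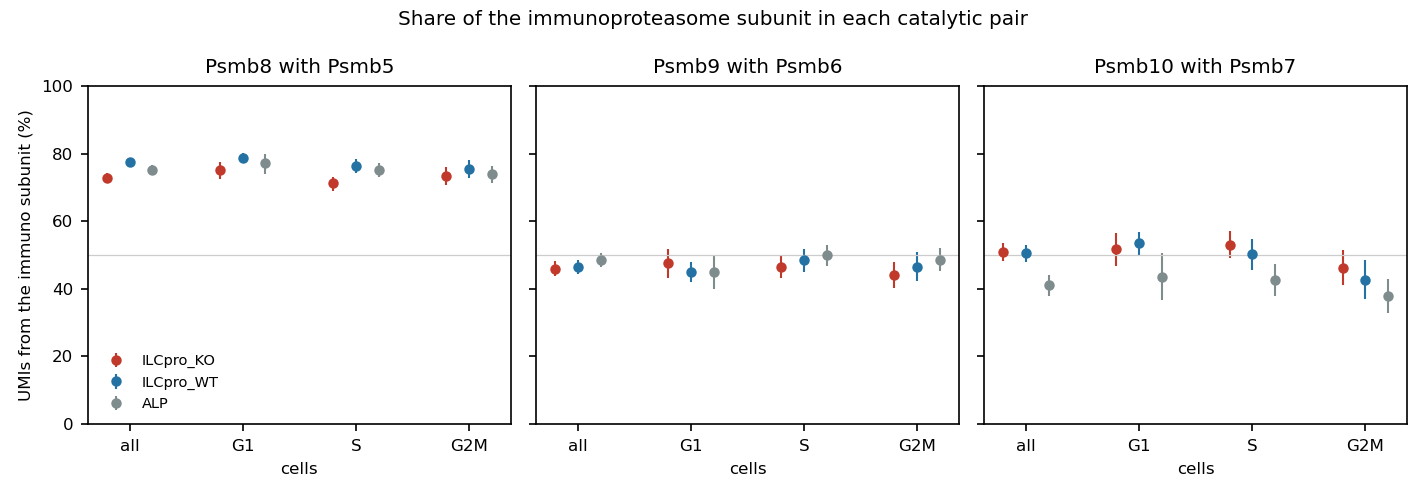
Share of UMIs from the immunoproteasome subunit in each catalytic pair, in percent, for all kept cells and for cells called in G1, S and G2/M, with exact 95% Clopper-Pearson intervals. Psmb8 makes up 72.8 to 77.6% of its pair over all cells, Psmb9 and Psmb10 lie near 50% or below, and the ALP points are lowest for Psmb10.

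Single cells carried few UMIs per subunit. After each cell was thinned to 1000 UMIs, which left out 4 ILCpro_WT cells, a Psmb8 UMI was found in 46.5% (42.8 to 50.2) of ILCpro_KO cells, 52.7% (50.4 to 55.0) of ILCpro_WT cells and 48.5% (45.0 to 52.0) of ALP cells. Unthinned the shares were 91.5%, 85.8% and 91.2%, an order that followed depth. No cell type here should lack the proteasome, so there is no cell type to read background from; Psmb11 was found in 0 of 716, 0 of 1829 and 0 of 810 cells. Psmb10 was found after thinning in 16.6% (13.97 to 19.6) of ILCpro_KO cells, 12.2% (10.8 to 13.8) of ILCpro_WT cells and 11.2% (9.14 to 13.6) of ALP cells. Psma7 was found in 40.1% (36.5 to 43.8), 31.7% (29.6 to 33.9) and 34.6% (31.3 to 38.0).

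Cell cycle phase was called from the S and G2/M gene lists, and the summed proteasome genes were higher in G2/M than in G1 cells of each library. In ILCpro_WT the members summed to 7362 CPM in 176 G2/M cells against 5940.0 CPM in 1215 G1 cells, a fold of 1.24 (1.21 to 1.27). In ILCpro_KO the sums were 7748 against 7023 CPM (fold 1.10, 1.07 to 1.14) and in ALP 6944 against 6236 CPM (fold 1.11, 1.08 to 1.15). In ILCpro_WT the fold of G2/M over G1 was 1.41 (1.33 to 1.5) for the alpha subunits, 1.36 (1.23 to 1.498) for the ATPases and 1.12 (1.04 to 1.20) for the immunoproteasome, and Psmf1, the lone inhibitor, had a fold of 1.90 (1.15 to 3.08) on a low level. Called higher in G2/M were 10 of 41 members in ILCpro_WT, beside 13.7% of all genes, 1 of 42 in ILCpro_KO, beside 10.7%, and 2 of 41 in ALP, beside 11.2%. In ILCpro_WT these were Psma2, Psma7, Psmb6, Psmb7, Psmb9, Psmc3, Psmd1, Psmd13, Psme2 and Psmf1, while ILCpro_KO had Psmd14 and ALP had Psmc1 and Psmd13. Psmb9 stood out among the immuno genes at 274 CPM in G2/M cells against 157 CPM in G1 cells of ILCpro_WT, a fold of 1.74 (1.49 to 2.03), while Psmb8 stood at 770.1 against 769.9 CPM. The phases lay in different clusters, since cluster 0 held 529 of the 1215 G1 cells of ILCpro_WT and 1 of its 176 G2/M cells, while cluster 4 held 90 G2/M cells and no G1 cell. Without cluster 0 the fold of G2/M over G1 in ILCpro_WT was 1.15 (1.12 to 1.19) over all members and 1.23 (1.16 to 1.31) for the alpha subunits, and Psmb9 alone was called, beside 12.8% of all genes, at 275.6 against 162 CPM. Within cluster 3 the 21 G2/M cells had 8485 CPM and the 111 G1 cells 6997 CPM, a fold of 1.21 (1.11 to 1.32). In ILCpro_KO too the phases lay in different clusters, since cluster 4 held 59 of 126 G2/M cells and 1 of 286 G1 cells. Cluster 10, described further on, held 22 of these G2/M cells and 14 of these G1 cells. Whether the ILCpro_KO fold holds apart from cluster was not tested. In ALP 89.8% of G2/M cells lay in cluster 5, which held no G1 cell, and 93.1% of G1 cells in cluster 1, so phase and cluster cannot be told apart there. Between S and G1 cells the folds of the summed level were 1.09 (1.06 to 1.12) in ILCpro_KO, 1.13 (1.10 to 1.15) in ILCpro_WT and 1.08 (1.05 to 1.12) in ALP. For ILCpro_WT the fold was 1.06 (1.03 to 1.08) without cluster 0 and 0.936 (0.887 to 0.987) within cluster 3, where the direction turned. Called higher in S cells were 0 of 42 members in ILCpro_KO, beside 10.1% of all genes, 0 of 40 in ILCpro_WT, beside 12.2%, and 1 of 41 in ALP (Psmd13, 109 against 66.9 CPM), beside 11%. Whether the libraries differ in their phase contrast was not tested.

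**Figure D4:**
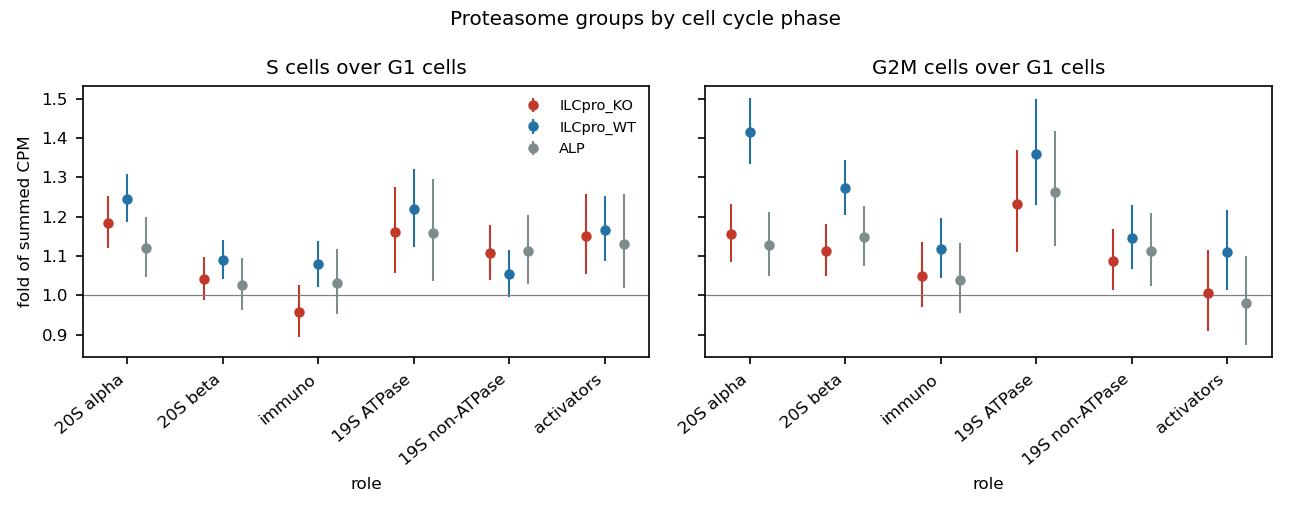
Fold of summed CPM in S cells over G1 cells and in G2/M cells over G1 cells for 6 roles, with exact conditional 95% intervals. In the panel of G2/M over G1 cells the ILCpro_WT point of the alpha subunits lies at 1.41 (1.23 without cluster 0), above the ILCpro_KO (1.15) and ALP (1.13) points.

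Psmc3ip, which meets the symbol rule without being a subunit, was higher in S than in G1 cells. It stood at 68.8 CPM in S cells against 9.02 CPM in G1 cells of ILCpro_KO, a fold of 7.63 (4.14 to 15.6). The fold was 5.91 (4.01 to 8.91) in ILCpro_WT and 3.58 (1.95 to 7.16) in ALP.

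Cells of all libraries were also grouped into 14 clusters made without the proteasome genes, their partners and the marker genes, and 15 combinations of cluster and library held at least 50 cells. Over these, the summed alpha subunits ranged from 954 CPM in ILCpro_WT cells of cluster 0 to 2178 CPM in ILCpro_KO cells of cluster 10. The summed immunoproteasome genes ranged less, from 809 CPM in cluster 10 of ILCpro_KO to 1244 CPM in cluster 4 of ILCpro_WT, a cluster led by division genes. Single members ranged by 1.41-fold (Psmd4) to 5.87-fold (Psmc2), the wide end resting on a group with few UMIs.

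Cluster 0, ILC precursor-like by 10 of 10 markers including Zbtb16, Gata3 and Rora, held 564 ILCpro_WT cells and had the lowest level of constitutive subunits. Set against the 259 ILCpro_WT cells of cluster 3, an unnamed group led by Egln3 and Nfil3, its alpha subunits summed to 954 CPM (906 to 1004) against 1550 CPM (1470 to 1634), a fold of 0.615 (0.572 to 0.663). Psma7 stood at 289.9 against 517 CPM, Psma4 at 101 against 196 CPM and Psma2 at 145 against 245 CPM. Called lower were 10 of 40 members, beside 15.1% of all genes, and 0 were higher, beside 16.4%. The immunoproteasome genes summed to 1089.7 against 1135 CPM, a fold of 0.960 (0.888 to 1.04). Psmb8 took 81.8% (79.8 to 83.8) of its pair in cluster 0 against 76.0% (73.2 to 78.7) in cluster 3, and over the 3 pairs the immuno share was 71.3% (69.4 to 73.1) against 64.0% (61.6 to 66.3). In cluster 0 Psmb8 was at 803 CPM, against 791 CPM in cluster 3, while Psmb5 was at 178 against 249 CPM, its lowest level in the 15 groups being that of cluster 0.

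Cells in G1 made up 93.8% of cluster 0 and 42.9% of cluster 3 in ILCpro_WT, and the median cell had 2304.5 against 3344 UMIs. Among G1 cells alone the alpha fold was 0.603 (0.545 to 0.669), with 937 against 1554 CPM, 12 of 41 members were lower, beside 14.7% of all genes, and the immuno share was 71.2% (69.2 to 73.1) against 63.6% (59.6 to 67.4). That comparison was added after the values were seen. ILCpro_WT cells of cluster 2, led by Fgf3, lay between, with 1402 CPM of alpha subunits and an immuno share of 66.1% (64.2 to 68.0). This order depends on the clustering, since at resolution 0.5 most cells of clusters 2 and 3 fell into 1 group of 775 ILCpro_WT cells. Alpha subunit levels were not recomputed under other clusterings. Only 14 ILCpro_KO cells fell into cluster 0, too few to give their level.

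**Figure D5:**
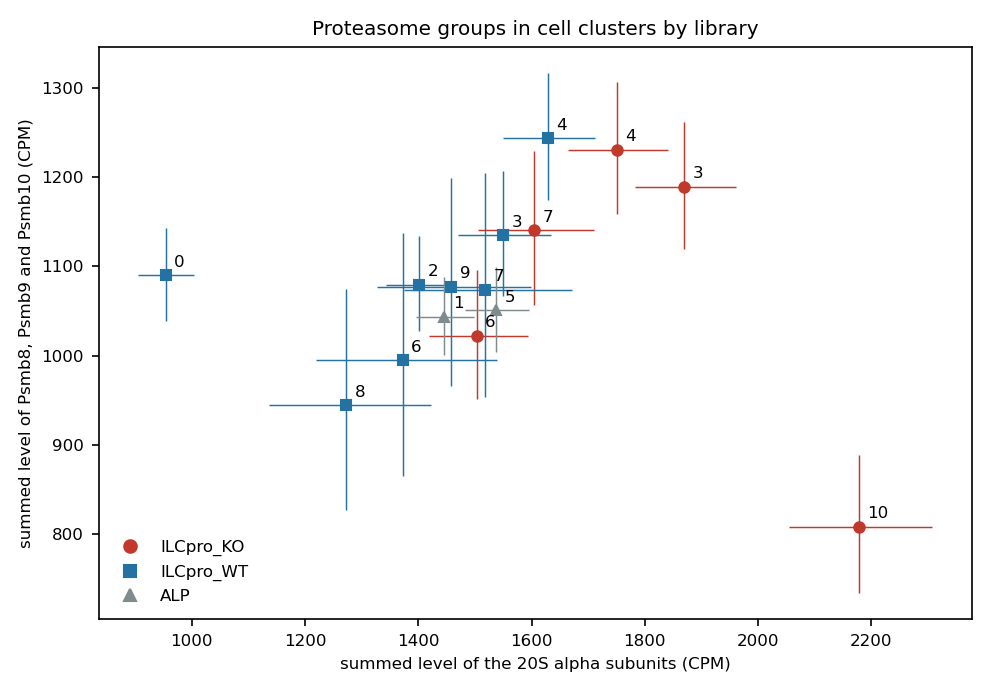
Summed level of the immunoproteasome genes against the summed level of the alpha subunits, both in CPM, for each cluster and library with at least 50 cells; numbers are clusters and lines are exact 95% Poisson intervals. Cluster 0 of ILCpro_WT lies far left at 954 CPM of alpha subunits with a middling immunoproteasome level, and cluster 10 of ILCpro_KO lies low at the right at 2178 and 809 CPM.

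Cluster 10 was the other extreme. Its 62 ILCpro_KO cells were neutrophil and monocyte-like by 12 of 12 markers and were led by S100a8 and Elane. Against the other 654 ILCpro_KO cells, their alpha subunits summed to 2178 against 1661 CPM, a fold of 1.31 (1.23 to 1.40), and their immunoproteasome genes to 809 against 1115 CPM, a fold of 0.725 (0.655 to 0.80). Psma5 stood at 193 against 110.1 CPM and Psma7 at 805 against 504 CPM, and these 2 of 42 members were called higher, beside 10.9% of all genes. Psmb8 alone was called lower, beside 18.6% of all genes, at 430.5 CPM (377 to 490) against 717 CPM, a fold of 0.601 (0.523 to 0.687). Psmb8 took 57.6% (52.6 to 62.5) of its pair there, and the 3 pairs together 49.9% (46.5 to 53.3), the lowest immuno share of the 15 groups. Psme1 was also lowest in these cells, at 266 CPM (224 to 313). The 101 ILCpro_KO cells of cluster 7, conventional DC-like, had an immuno share of 67.0% (64.0 to 69.8), near the 66.1% (61.4 to 70.5) of the 79 ILCpro_WT cells of that cluster.

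Clusters 3, 4, 6 and 7 held at least 50 cells of both ILCpro libraries, which allowed the genotypes to be set side by side within a state. The summed level was higher in ILCpro_KO in each, with folds of 1.16 (1.12 to 1.20) in cluster 3, 1.11 (1.07 to 1.15) in cluster 4, 1.11 (1.05 to 1.18) in cluster 6 and 1.07 (1.01 to 1.13) in cluster 7. Part of this was shared by all genes. In the same order the members' median log2 ratio was 0.215, 0.19, 0.262 and 0.161, beside 0.13, 0.0996, 0.163 and 0.0762 for all genes. The immunoproteasome folds were 1.05 (0.961 to 1.14), 0.990 (0.910 to 1.08), 1.03 (0.882 to 1.20) and 1.06 (0.925 to 1.22), and each interval included 1. In clusters 6 and 7 the intervals of the alpha subunits (0.963 to 1.25 and 0.941 to 1.19) included 1 too. So did those of the constitutive beta subunits (0.951 to 1.21 and 0.898 to 1.12). The intervals of the non-ATPase subunits there (1.02 to 1.37 and 1.098 to 1.47) lay above 1. Calls among members were 1 of 41 in cluster 3 (Psmd12, beside 8.66% of all genes), 5 of 42 in cluster 4 (Psmc2, Psmc4, Psmd2, Psmd6 and Psme4, beside 10.1%), 6 of 41 in cluster 6 (beside 20.5%) and 6 of 41 in cluster 7 (beside 16%). All these were higher in ILCpro_KO, and shares of members called did not stand clear of the background. In cluster 3 the immuno share of the 3 pairs was 63.3% (61.0 to 65.6) in ILCpro_KO and 64.0% (61.6 to 66.3) in ILCpro_WT, closer together than in the whole libraries. The Psmb8 share was 75.6%, 74.0%, 72.6% and 78.4% in ILCpro_KO cells of clusters 3, 4, 6 and 7. In ILCpro_WT cells it was 76.0%, 75.9%, 76.2% and 74.7%, so cluster 7 had the other direction. The intervals of the Psmb8 share overlapped in each of these clusters.

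Partner genes without a Psm symbol were read in the same way, where 8.13% of all genes were called higher and 3.05% lower in ILCpro_KO against ILCpro_WT. Of 5 chaperones of the 20S core, 0 were called in either direction in that comparison, and Pomp, the maturation protein that joins the beta rings, stood at 355 CPM in ILCpro_KO, 293 in ILCpro_WT and 307 in ALP. Of 9 measured 19S subunits and partners without a Psm symbol, 2 were called higher in ILCpro_KO against ILCpro_WT and 0 lower, and of 10 measured in ILCpro_WT against ALP 2 were called lower, beside 12.3% of all genes. The 2 higher ones are deubiquitinases of the 19S cap: Uchl5 at 73.0 CPM in ILCpro_KO, 36.3 in ILCpro_WT and 61.2 in ALP, and Usp14 at 63.6, 38.1 and 60.3 CPM. Shfm1, which encodes a small lid subunit, stood at 708, 621 and 546 CPM. Among 9 measured factors that regulate subunit transcription 0 were called in ILCpro_KO against ILCpro_WT. Nfe2l1, whose product NRF1 raises subunit transcription when proteasomes fail, stood at 23.5, 22.6 and 24.1 CPM, and Stat3 alone of the 9 was called higher in ILCpro_WT against ALP, beside 5.64% of all genes, at 83.5 against 43.3 CPM. Of 7 measured ubiquitin and unfoldase genes 0 were called in ILCpro_KO against ILCpro_WT; Vcp, the unfoldase that passes substrates to the proteasome, stood at 273, 225 and 210 CPM.

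Of 10 measured genes of the MHC class I pathway, 3 were called higher in ILCpro_KO against ILCpro_WT and 0 lower, beside 8.13% and 3.05% of all genes, and the 3 are chaperones of the endoplasmic reticulum. Calr stood at 778 CPM in ILCpro_KO against 478 in ILCpro_WT, Pdia3 at 166 against 100.3 CPM and Canx at 281 against 184 CPM. In ILCpro_WT against ALP 1 of the 10 genes was called lower and 0 higher, beside 12.3% and 5.64% of all genes. The median of the 10 was -0.088, beside -0.093 for all genes, and 4 lay above 0. The peptide transporter genes were lower there, as Psmb9 was: Tap1 stood at 69.6 against 105 CPM (-0.53) and Tap2, the called gene, at 93.5 against 162 CPM (-0.73). The interferon response list of 20 genes also holds the receptor genes Ifngr1 and Ifngr2 and the kinase genes Jak1 and Jak2. In ILCpro_WT against ALP 11 were measured, of which 5 were called lower and 2 higher, beside 12.3% and 5.64% of all genes. Both subunits of the interferon gamma receptor were among the lower ones, Ifngr1 at 43.5 CPM in ILCpro_WT against 80.2 in ALP and Ifngr2 at 15.3 against 36.7 CPM. Socs1, an inhibitor of cytokine signalling, was higher, at 73.7 against 7.78 CPM. In ILCpro_KO against ILCpro_WT, Socs1 stood at 7.76 against 73.7 CPM and was called lower, and Ifngr1 (83.3 against 43.5 CPM) and Ifngr2 (35.6 against 15.3 CPM) were called higher.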

How the data were processed

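The tables deposited by the authors hold UMI counts per gene and cell barcode, whole numbers as such counts are, for 1 library per group. Cell Ranger 2.0.1, bcl2fastq 2.17, STAR 2.5.1b and the build mm10 are listed, without roles, per the submitters' processing notes. Cells with at least 500 genes and at most 10% mitochondrial UMIs were kept (716 of 716 ILCpro_KO, 1829 of 1834 ILCpro_WT and 810 of 812 ALP), with doublets left in. UMIs were summed per library, phase or cluster and scaled to CPM, and log2 ratios had 10 CPM added to both sides. Genes with at least 20 CPM in either group were measured and called at 1.5-fold. The 95% intervals are exact ones, from the Poisson distribution (summed UMIs), the binomial distribution given the total (ratios) or by Clopper-Pearson (shares). PCR and cell sampling add error that they leave out. Depth was 4384061, 6094683 and 4115605 UMIs. Phases and clusters were made with scanpy 1.11.5 and leidenalg 0.10.2 (resolution 1.0, 15 neighbours, 30 principal components, 2000 variable genes, 10000 counts per cell, no integration). A cluster was named for the type with most markers at least 2-fold higher, and left unnamed with under 3 such markers or where its top 10 genes held none of that type or more of another. The details of naming were written after the data were seen, and no annotation by the authors was used here. The ratio and interval code was tested on simulated data.

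Gene positions are from GENCODE vM21 (GRCm38) and start windows from RefSeq (GRCm38.p6), where 39 of 46 members had a window. The members, gene lists and tests were chosen with earlier results of these data known. Genes named are the catalytic pairs, activators and inhibitor, up to 3 members per role with the highest and 3 with the lowest ratio in each comparison, members under 20 CPM, and up to 4 genes per partner list with the largest ratio; in the other comparisons and states some of these are given again. Pomp, Shfm1, Nfe2l1 and Vcp are given for their role, Psmb8 and Psmb5 in clusters as members of a pair.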

Additional observations from a re-analysis of the deposited data

How the results depend on the processing

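No paired analysis was possible because each group has 1 library, and no replicate could be left out. Of the main values 224 recomputed ones stayed within their limits, 39 moved and 1 changed direction; of the other medians and single genes 452 stayed, 38 moved and 5 changed sign. In ILCpro_KO against ILCpro_WT the members' median of 0.30 became 0.34 with 1 CPM added, 0.22 without ribosomal and mitochondrial genes in the total, 0.25 with cells thinned to 1000 UMIs, 0.21 without cluster 0 and 0.19 centred on the median of all genes. The count of 2 higher members became 0 without ribosomal and mitochondrial genes, without cluster 0, when centred, and at 2-fold. It became 1 with the mean of per-cell CPM, the stricter filter on cells, doublets removed, thinning, and G1 cells. In ILCpro_WT against ALP, G1 cells gave 1 higher and 1 lower in place of 0 and 0, and in ILCpro_KO against ALP 2-fold gave 0 in place of 1. The ILCpro_KO against ALP immunoproteasome median of 0.01 became -0.043 without ribosomal and mitochondrial genes, -0.032 with the per-cell mean, and -0.014 both thinned and centred. In ILCpro_WT against ALP the constitutive 20S median of -0.099 became 0.012 without cluster 0. In ILCpro_WT the G2/M over G1 fold of 1.24 with 10 called members became 1.15 with 1 without cluster 0, and the S over G1 fold of 1.13 with 0 called became 1.06 without cluster 0 and 0.936 with 1 called in cluster 3. The centred values, those without cluster 0 or in cluster 3 and those without other-lineage-led clusters were chosen after seeing the data.

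Pair shares moved as follows. Psmb8 in ILCpro_KO (72.8%) was 75.1% in G1 cells and 74.2% without clusters led by other-lineage markers, and in ILCpro_WT (77.6%) 78.8% both in G1 cells and thinned and 76.1% without cluster 0. In ALP G1 cells Psmb8 was 77.1% and Psmb9 45.0%. Psmb10 was 57.0% in ILCpro_KO, 54.2% in ILCpro_WT and 46.0% in ALP when thinned, and 53.4% in ILCpro_WT G1 cells, and ALP stayed lowest in each. At resolution 1.5 the cluster holding most of cluster 10 had an immuno share of 54.7%. It held 79 ILCpro_KO cells, of which 36 came from the 62 of cluster 10, so it is largely another set of cells. At 500 UMIs a Psmb8 UMI was found in 26.8% of ILCpro_KO, 32.2% of ILCpro_WT and 27.4% of ALP cells, and at 2000 UMIs in 69.7%, 76.8% and 72.8%. The cause of these moves was not tested.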
